A study of Mus musculus with 3 samples.

Results

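The expression of 10 genes of epithelial junctions and hepatocyte polarity was followed across 3 mouse tissues: the adherens junction cadherin Cdh1, the claudins Cldn1, Cldn2, Cldn3 and Cldn14, the tight junction genes Ocln and Tjp3, the connexins Gjb1 and Gjb2, and the canalicular adhesion gene Ceacam1. They were chosen by name for their roles in junctions and polarity, with earlier results of these data known. Their probes were found through the RefSeq accession each probe carries. Of the 10 genes, 9 had at least 1 named probe among the 20546 named genes of the array, with 11 probes in all, and Ceacam1 had none and is only named here. One RNA sample of each of 3 tissues from female mice was hybridised to 1 single-colour Agilent array. The first was the SiO2-3TF-3C spleen, a spleen given SiO2 (silica) together with the treatment 3TF-3C, which the labels do not spell out; the design text calls such spleens hepatized. The second was normal liver, included as a positive control with no treatment given, and the last was the SiO2 spleen, given silica without 3TF-3C, so that both spleens carry the silica treatment. Spleens were taken on day 82, and 5 samples were pooled per group according to the design text, which leaves unsaid whether the liver was pooled too; strain and age were not given in the sources used here.

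Epithelial cells are held together by adherens junctions, in which cadherins bind across the gap between cells, and by tight junctions, in which claudins and occludin seal that gap and zonula occludens proteins anchor them to actin. Gap junctions, built from connexins, join the cytoplasm of neighbouring cells. In the liver, tight junctions separate the bile canaliculus, the apical face of the hepatocyte, from the face turned to the blood, and the hepatocyte is known for a polarity in which the canaliculus runs between neighbouring cells.

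The 300-base windows around annotated start sites (250 bases before, 50 after) are shown for 5 members: for Gjb1, Gjb2, Cldn3 and Cldn1 because these were among the members with large differences between the spleens, and for Tjp3 because its level was nearly the same in both spleens. They are RefSeq sequences on GRCm38.p6, each read 5′ to 3′ on the strand of its gene. For Gjb1, the only one of its 4 windows with a match to a motif searched is shown, at chrX:101383482-101383781 on the plus strand. The Gjb2 window lies at chr14:57104653-57104952 on the minus strand, the Cldn3 window at chr5:134985964-134986263 on the plus strand and the Cldn1 window at chr16:26371790-26372089 on the minus strand. For Tjp3, 1 of its 2 windows is shown, the one that holds a Gata site beside an E-box (the other holds an E-box), at chr10:81291532-81291831 on the minus strand. Capitals mark matches, on either strand, to the E-box of the Snail and Zeb repressors (CACCTG) or to a Gata site (AGATAA); the Cldn1 window holds neither.
Gjb1: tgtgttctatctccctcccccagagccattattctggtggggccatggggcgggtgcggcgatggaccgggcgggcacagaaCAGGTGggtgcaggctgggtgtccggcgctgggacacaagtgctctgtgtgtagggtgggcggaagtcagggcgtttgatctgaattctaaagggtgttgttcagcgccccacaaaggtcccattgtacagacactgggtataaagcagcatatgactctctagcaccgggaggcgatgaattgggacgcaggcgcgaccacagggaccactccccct
Gjb2: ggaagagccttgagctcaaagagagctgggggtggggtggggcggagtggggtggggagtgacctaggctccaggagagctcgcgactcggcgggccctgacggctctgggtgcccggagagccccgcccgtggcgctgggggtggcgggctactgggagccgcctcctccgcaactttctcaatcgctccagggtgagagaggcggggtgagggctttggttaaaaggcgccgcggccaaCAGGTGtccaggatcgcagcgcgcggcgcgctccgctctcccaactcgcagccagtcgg
Cldn3: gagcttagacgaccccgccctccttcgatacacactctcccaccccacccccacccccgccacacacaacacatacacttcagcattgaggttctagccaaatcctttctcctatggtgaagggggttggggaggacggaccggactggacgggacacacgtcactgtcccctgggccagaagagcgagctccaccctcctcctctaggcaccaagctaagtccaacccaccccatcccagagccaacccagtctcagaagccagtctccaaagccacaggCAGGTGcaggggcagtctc
Cldn1: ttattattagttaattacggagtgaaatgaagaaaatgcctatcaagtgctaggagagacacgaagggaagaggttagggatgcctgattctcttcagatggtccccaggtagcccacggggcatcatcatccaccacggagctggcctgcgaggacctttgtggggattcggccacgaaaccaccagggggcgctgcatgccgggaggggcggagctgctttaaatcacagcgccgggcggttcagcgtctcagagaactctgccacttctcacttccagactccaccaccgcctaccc
Tjp3: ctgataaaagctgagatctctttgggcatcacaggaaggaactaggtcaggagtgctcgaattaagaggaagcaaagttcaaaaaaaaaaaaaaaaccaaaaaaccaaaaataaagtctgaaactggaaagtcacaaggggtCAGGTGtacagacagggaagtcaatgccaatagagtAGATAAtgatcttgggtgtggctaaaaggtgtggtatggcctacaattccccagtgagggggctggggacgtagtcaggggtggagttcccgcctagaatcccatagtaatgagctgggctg

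All 9 members other than Cdh1 had windows, 16 in number, of which the 2 Ocln windows overlap, as do 2 of the 3 Cldn14 windows. The E-box was found in 8 of these windows, from the 6 members Cldn3, Cldn14, Gjb1, Gjb2, Ocln and Tjp3, and in 20.2% of all 32851 windows. A Gata site was found in 1 window, of Tjp3, and in 11.2% of all windows. None of the 16 windows held the Hnf4a site CAAAGTCCA (0.475% of all windows), the Foxa site TGTTTAC (3.65%) or the Grhl site AACCGGTT (0.146%). These matches describe letters in the windows and were set against no binding data.

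Each level below is the log2 of a probe's background-subtracted signal minus the log2 of the 75th percentile of its array, so 0 is the signal of a probe brighter than 75% of the others, and each difference subtracts 2 such levels of the same probe. The error after ± is the technical error that the scanner software gives for the 2 signals; it leaves out the spread between animals, and with 1 array a group no test between tissues could be made. A gene was called higher or lower where it differed by at least 2-fold, that is by 1 on the log2 scale. Where a probe was not well above background on 1 of the 2 arrays, its difference is a bound, written "at least", in which the dim array is set to the dimmest signal that passed the background test there, or to the probe's own signal where that is higher. Of 43020 spots, between 77.2% and 81.3% were well above background on each array, and 0 were saturated. Over all genes measured, bounds counted at their value, the median of the differences was -0.15 between the SiO2-3TF-3C spleen and the SiO2 spleen. It was -0.14 between liver and the SiO2 spleen, and single differences are to be read against these medians. Of 15 hepatocyte markers, 15 passed the background test in liver, 15 in the SiO2-3TF-3C spleen and 13 in the SiO2 spleen. All 12 B and T cell markers passed it in both spleens and in liver. Passing this test was therefore no check of the labelled tissues. The summed level of the B and T cell markers was 126 times the 75th percentile in the SiO2-3TF-3C spleen, 73.0 times in liver and 179 times in the SiO2 spleen.

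Of the 9 measured members, 7 were at least 2-fold higher with 3TF-3C than with SiO2 alone, 0 were at least 2-fold lower, and Cldn14 and Tjp3 differed by less than 2-fold. Over all 17639 genes measured, 5.24% were at least 2-fold higher and 1.39% at least 2-fold lower. The median difference of the members was at least 2.56, against the -0.15 of all genes. That median is the bound of Ocln, and 4 of the 9 differences were bounds. In RNA from whole tissue, fewer cells of a type and less RNA per cell cannot be told apart, here or in any comparison below. All 9 members were well above background in the SiO2-3TF-3C spleen and in liver, and 5 were in the SiO2 spleen, where Cldn1, Cldn2, Cldn3 and Ocln were not.

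**Figure D1:**
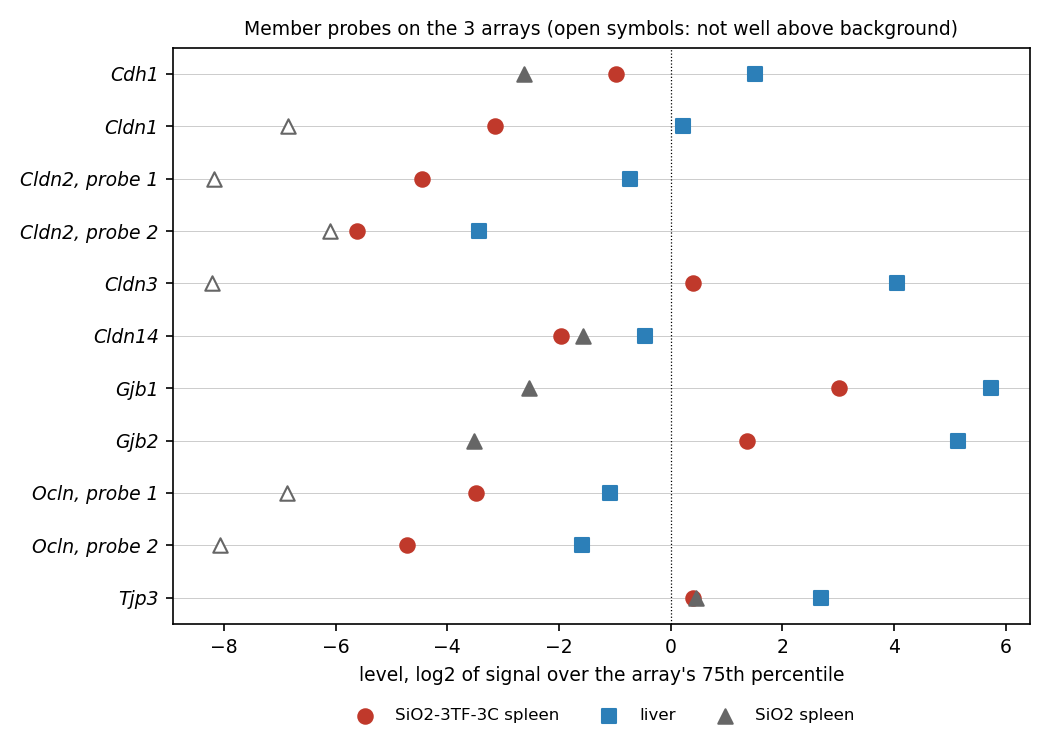
Levels of the 11 member probes (rows) as log2 signal over the 75th percentile of the array (x axis) in the SiO2-3TF-3C spleen (circles), liver (squares) and the SiO2 spleen (triangles), with 1 array each; open symbols were not well above background. Every probe was brightest in liver, and the circle lies right of the triangle for all but Cldn14 and Tjp3.

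The connexins of the hepatocyte were the members with the widest differences measured on both spleen arrays. Gjb1, which encodes the main gap junction protein of hepatocytes, had a level of 3.02 in the SiO2-3TF-3C spleen, 5.73 in liver and -2.53 in the SiO2 spleen. It was thus well above background in all 3 tissues, high in liver, intermediate in the SiO2-3TF-3C spleen and low in the SiO2 spleen. The difference between the spleens was 5.55 ± 0.21, which is 46.9-fold, and at least 151 of the 17639 genes had a larger one, bounds counted at their value. Gjb2, the second connexin of hepatocyte gap junctions, had a level of 1.36 in the SiO2-3TF-3C spleen, 5.13 in liver and -3.53 in the SiO2 spleen, the same order as Gjb1. It was 29.6-fold higher with 3TF-3C than with SiO2 alone, a difference of 4.89 ± 0.21.

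Cldn3, a sealing claudin, set the SiO2 spleen apart from both other tissues. Its processed signal was 680.0 in the SiO2-3TF-3C spleen, 6456 in liver and 1.92 in the SiO2 spleen, where the median negative control spot had 1.94. The probe was therefore indistinct from background in the SiO2 spleen, and on the scaled axis its levels were 0.40 in the SiO2-3TF-3C spleen, 4.05 in liver and -8.21 in the SiO2 spleen. Between the spleens, Cldn3 was at least 87.0-fold higher with 3TF-3C.

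The other claudins called higher were dim. Cldn1, which encodes a barrier-forming claudin of hepatocytes and of many other epithelia, had a level of -3.15 in the SiO2-3TF-3C spleen, 0.23 in liver and -6.84 in the SiO2 spleen. With 3TF-3C it was at least 7.40-fold above the SiO2 spleen. Cldn2, which forms pores for cations and water, had a level of -4.44 in the SiO2-3TF-3C spleen, -0.73 in liver and -8.17 in the SiO2 spleen by its brighter probe, and was at least 3.03-fold higher with 3TF-3C than with SiO2 alone. Its other probe, at -5.62 in the SiO2-3TF-3C spleen, -3.43 in liver and -6.11 in the SiO2 spleen, gave the same order but a bound of only 1.33-fold between the spleens. As a lower bound, that value cannot decide whether Cldn2 passed 2-fold there, and it does not conflict with the brighter probe. The 2-fold call of Cldn2 therefore rests on the brighter probe alone.

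Cldn14, a claudin of liver, kidney and inner ear, stood apart from the other claudins of the set. It had a level of -1.96 in the SiO2-3TF-3C spleen, -0.46 in liver and -1.56 in the SiO2 spleen, and was well above background in each. The difference between the spleens was -0.39 ± 0.21, within 2-fold.

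Ocln encodes occludin, a tight junction protein with several spans of the membrane. By its brighter probe it had a level of -3.48 in the SiO2-3TF-3C spleen, -1.09 in liver and -6.87 in the SiO2 spleen, the last not well above background. The SiO2-3TF-3C spleen exceeded the SiO2 spleen at least 5.89-fold, and the other probe, also dim in the SiO2 spleen, gave at least 2.51-fold. With normexp background correction, which lifts dim signals, Ocln (0.87 on the log2 scale), Cldn1 (0.99) and Cldn2 (0.53) kept their direction but fell below 2-fold, so that 4 of 9 members were called. Under the same correction, 592 of 17578 genes were called higher between the spleens.

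Tjp3, which encodes a zonula occludens scaffold beneath the tight junction, had a level of 0.40 in the SiO2-3TF-3C spleen, 2.69 in liver and 0.45 in the SiO2 spleen. The 2 spleens thus lay close together and below liver, with a difference between the spleens of -0.05 ± 0.20.

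Cdh1, which encodes E-cadherin, the adherens junction cadherin of epithelia, was the member measured with the most spots, 10 per array. Its processed signal ranged over the spots of an array between 245.9 and 321.4 in the SiO2-3TF-3C spleen, between 1044 and 1163 in liver and between 87.4 and 97.5 in the SiO2 spleen. The spots of the 3 arrays did not overlap, although spots of 1 array share their RNA and are no replicates of a tissue. In mean level, Cdh1 stood at -0.98 in the SiO2-3TF-3C spleen, 1.51 in liver and -2.62 in the SiO2 spleen. Relative to the SiO2 spleen it was 3.13-fold higher with 3TF-3C, a difference of 1.65 ± 0.21, and at least 578 genes had a larger one.

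**Figure D2:**
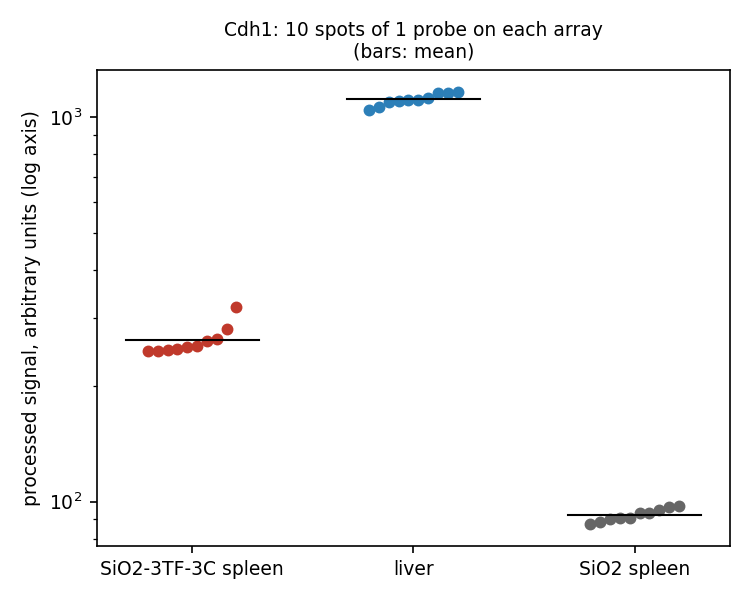
Processed signal of the 10 Cdh1 spots on each array (y axis, arbitrary units, log axis, before scaling between arrays) for the SiO2-3TF-3C spleen, liver and the SiO2 spleen; points are spots and bars their mean. The spots of the 3 arrays form separate bands, with liver highest and the SiO2 spleen lowest.

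The whole set was higher in normal liver. There, all 9 measured members exceeded the SiO2 spleen by 2-fold or more, with a median difference of at least 5.31, the bound of Cldn2. Of 17358 genes, 15.4% were at least 2-fold higher and 17.0% at least 2-fold lower, and the median difference of all these genes was -0.14. Gjb2 showed the widest difference of the members measured on both arrays, 8.66 ± 0.21 or 405-fold, followed by Gjb1 with 307-fold. Cldn3 was at least 1091-fold higher in liver, Cldn1 at least 77.0-fold, Cldn2 at least 39.7-fold and Ocln at least 30.9-fold. Liver exceeded the SiO2 spleen 17.6-fold for Cdh1 and 4.72-fold for Tjp3. Cldn14 had the smallest difference, 2.15-fold or 1.10 ± 0.21, and fell to 0.94, below 2-fold, with normexp background correction.

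The SiO2-3TF-3C spleen did not reach the liver level of any measured member. All 9 lay below liver by 2-fold or more, while 15.9% of 17212 genes were at least 2-fold lower and 10.7% at least 2-fold higher. The median difference of the members was -2.71, against -0.03 for all genes, and since all members were well above background in both tissues, no bound was needed. The gap to liver was widest for Gjb2 (-3.77), Cldn2 (-3.71), Cldn3 (-3.65) and Cldn1 (-3.38). It was narrower for Gjb1 (-2.71), Cdh1 (-2.49), Ocln (-2.39) and Tjp3 (-2.29), and narrowest for Cldn14, which was 2.82-fold lower, with technical errors between 0.20 and 0.23 for all 9. The second probes of Cldn2 (-2.20 ± 0.31) and Ocln (-3.12 ± 0.24) gave the same direction. These 3 comparisons share arrays, each array serving in 2 of them, so their values are not independent of each other.

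**Figure D3:**
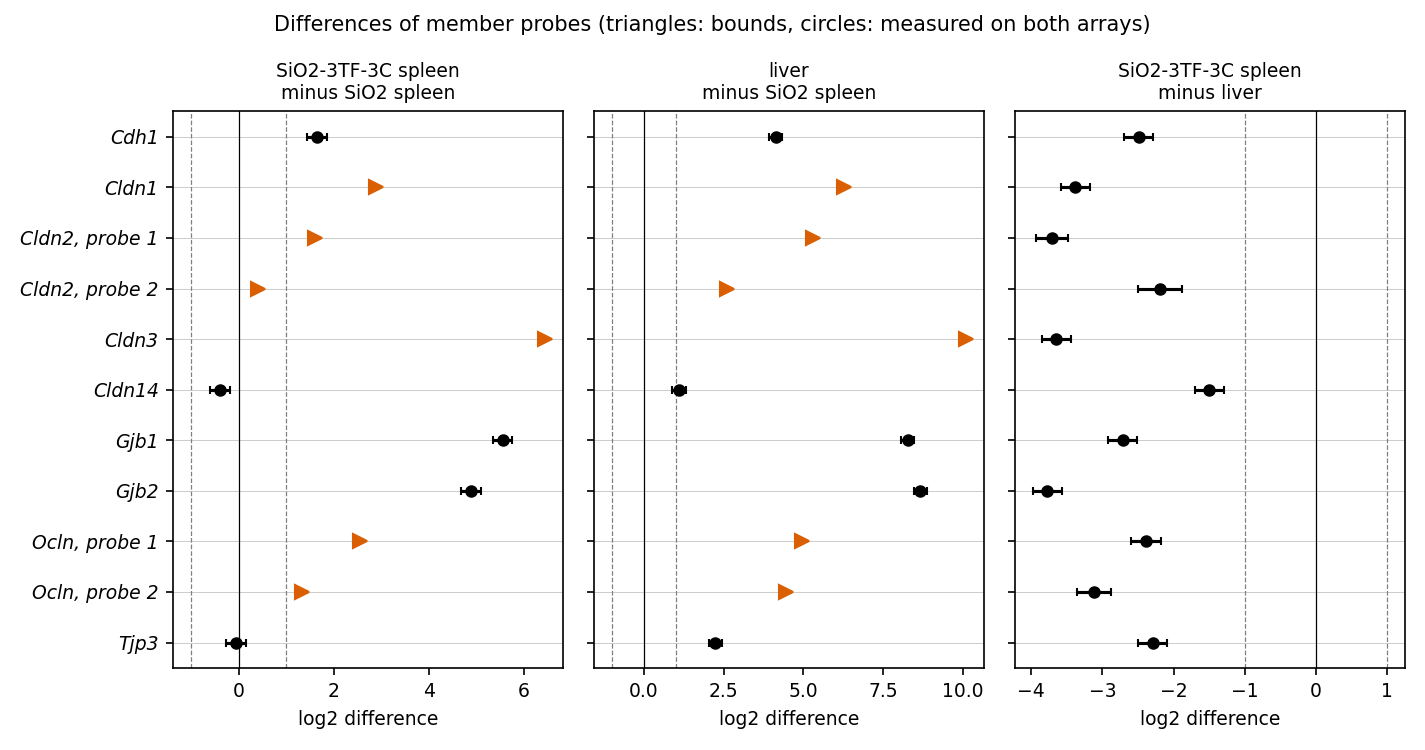
Log2 differences of the 11 member probes (rows) between the SiO2-3TF-3C spleen and the SiO2 spleen, liver and the SiO2 spleen, and the SiO2-3TF-3C spleen and liver; circles carry the technical error of the scanner software, triangles are bounds, and dashed lines mark 2-fold. Every probe lies right of 2-fold in the middle panel and left of 2-fold in the right panel. In the left panel Cldn14 and Tjp3 lie within 2-fold, and the second Cldn2 probe has a bound below 2-fold, which leaves its call open.

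**Figure D4:**
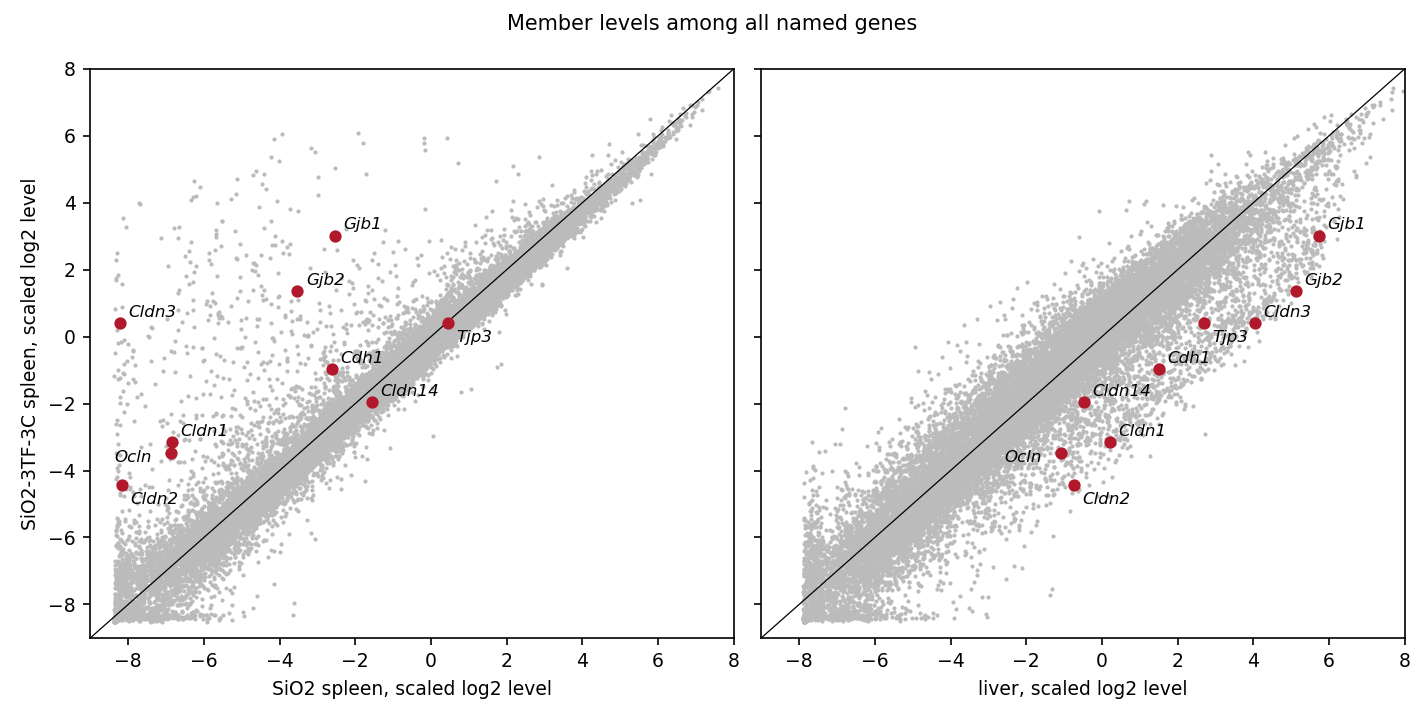
Scaled log2 levels of all named genes (grey points, 1 brightest probe each) and of the 9 measured members (red, named) in the SiO2-3TF-3C spleen (y axes) against the SiO2 spleen (left) and liver (right); the line marks equal levels, and points at the far left of a panel are near background. Above the line against the SiO2 spleen lie 7 members, while Cldn14 and Tjp3 lie just below it, and all 9 lie below it against liver.

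Hepatocyte markers were higher with 3TF-3C, as were 7 of the 9 members. All 15 hepatocyte markers listed exceeded the SiO2 spleen by 2-fold or more with 3TF-3C, with a median difference of 8.16, and their summed level was 340.2 times the 75th percentile in the SiO2-3TF-3C spleen, 901 times in liver and 4.12 times in the SiO2 spleen. In the SiO2 spleen 13 of the 15 were still well above background, and Ttr, the carrier of thyroxine, was not. Albumin (Alb) nearly reached its liver level in the SiO2-3TF-3C spleen, with a difference of -0.19 ± 0.20, unlike any member. Of the 15 hepatocyte markers, 11 were 2-fold or more below liver in the SiO2-3TF-3C spleen, with a median of -1.91. The part of hepatocyte RNA in the differences of the members was not tested.

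Some markers of other cells were higher with 3TF-3C too. Of 12 cholangiocyte markers, 4 were at least 2-fold higher with 3TF-3C than with SiO2 alone (2 when normexp background correction was used), and their summed level was 7.51, 9.25 and 7.73 times the 75th percentile in the SiO2-3TF-3C spleen, liver and the SiO2 spleen. The duct keratin Krt19 was dim in the SiO2 spleen, with a bound of 1.63-fold higher with 3TF-3C. Of 10 mesothelial markers with a probe, 3 were dim in both spleens and 4 were at least 2-fold higher with 3TF-3C, among them mesothelin (Msln, 2.86 ± 0.24) and the keratins Krt18 (4.60 ± 0.21) and Krt8 (a bound of 3.46), which hepatocytes also express. The mesothelial summed level was 4.10 times the 75th percentile in the SiO2-3TF-3C spleen, 27.6 times in liver and 2.13 times in the SiO2 spleen. Krt18 was the brightest of these markers in the SiO2-3TF-3C spleen (1.10) and in liver (4.61), and weighed most in the sums there. Wt1, the brightest of them in the SiO2 spleen, had 0.36 in the SiO2-3TF-3C spleen, -0.77 in liver and 0.88 in the SiO2 spleen. All 10 erythroid markers exceeded the SiO2 spleen by 2-fold or more with 3TF-3C (median 1.94), with summed levels of 34.5 times the 75th percentile in the SiO2-3TF-3C spleen, 3.96 times in liver and 9.73 times in the SiO2 spleen. Endothelial (0 of 10), fibroblast (0 of 10) and B and T cell markers (0 of 12) did not pass 2-fold in either direction between the spleens, although 12 of the 12 B and T cell markers had negative differences (median -0.53). The part of these cells in the differences of the members was not tested.

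The wider junction families were mostly within 2-fold between the spleens. For these and the lists that follow, the share over all 17639 genes was 5.24% higher and 1.39% lower. Of 13 other claudins measured, 3 were at least 2-fold higher with 3TF-3C than with SiO2 alone and 0 lower (median -0.09), namely Cldn13 (2.52 ± 0.21), Cldn12 (1.08 ± 0.20) and Cldn7, which lay at the threshold with levels of -2.51 in the SiO2-3TF-3C spleen and -3.51 in the SiO2 spleen. Of 29 other tight junction and polarity complex genes, 1 was higher and 1 lower (median -0.11). The higher one was cingulin (Cgn), which links tight junctions to the cytoskeleton, with 2.50 ± 0.21, and the lower one was Llgl1, a polarity gene of the basolateral side, at least 2.68-fold lower.

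Of 21 other adherens junction and desmosome genes, 6 were higher and 0 lower (median 0.22). Largest among them were Perp, a desmosome-associated membrane protein, with 4.15 ± 0.22, and the desmosomal plaque protein Pkp2, at least 7.97-fold higher, while Dsg2 (1.22 ± 0.28) and Epcam (1.13 ± 0.21) lay near the threshold. Ctnnb1, the catenin that binds the tail of E-cadherin, had 3.59 in the SiO2-3TF-3C spleen, 3.56 in liver and 3.58 in the SiO2 spleen, unlike Cdh1 nearly the same level on all 3 arrays. Of 11 other connexins and pannexins measured, 2 were higher and 0 lower (median -0.07), Panx2 (1.29 ± 0.35) among them. With normexp background correction 1 of the 13 other claudins, 2 of the 21 adherens junction and desmosome genes and 0 of the 11 connexins and pannexins were called higher.

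Genes of the canaliculus and of apical trafficking had 7 of 30 genes higher and 0 lower with 3TF-3C (median 0.08). They were led by Mal2, which carries proteins to the apical face (at least 42.4-fold), the canalicular sterol transporter Abcg5 (at least 24.9-fold), the canalicular organic anion pump Abcc2 (at least 11.6-fold) and the aminopeptidase Enpep (2.60 ± 0.21). Like the members, these 4 lay below liver in the SiO2-3TF-3C spleen, with differences of -3.75 for Mal2, -3.55 for Abcg5, -3.56 for Abcc2 and -3.07 for Enpep.

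Among 18 regulators of epithelial programmes measured, 6 were higher and 0 lower (median 0.15). The liver transcription factor Hnf4a differed by 8.37 ± 0.35, and Foxa2 (at least 17.4-fold) and Foxa3 (at least 11.4-fold) were higher as well. The repressors of E-cadherin Snai1 (-0.08 ± 0.22) and Zeb1 (0.14 ± 0.20) were within 2-fold, and their part in the Cdh1 difference was not tested. Hnf4a had a level of 2.49 in the SiO2-3TF-3C spleen, 5.68 in liver and -5.88 in the SiO2 spleen, the same order as in 7 of the 9 members. Its level in the SiO2 spleen lay close to the lowest signal well above background there (-6.04).

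**Figure D5:**
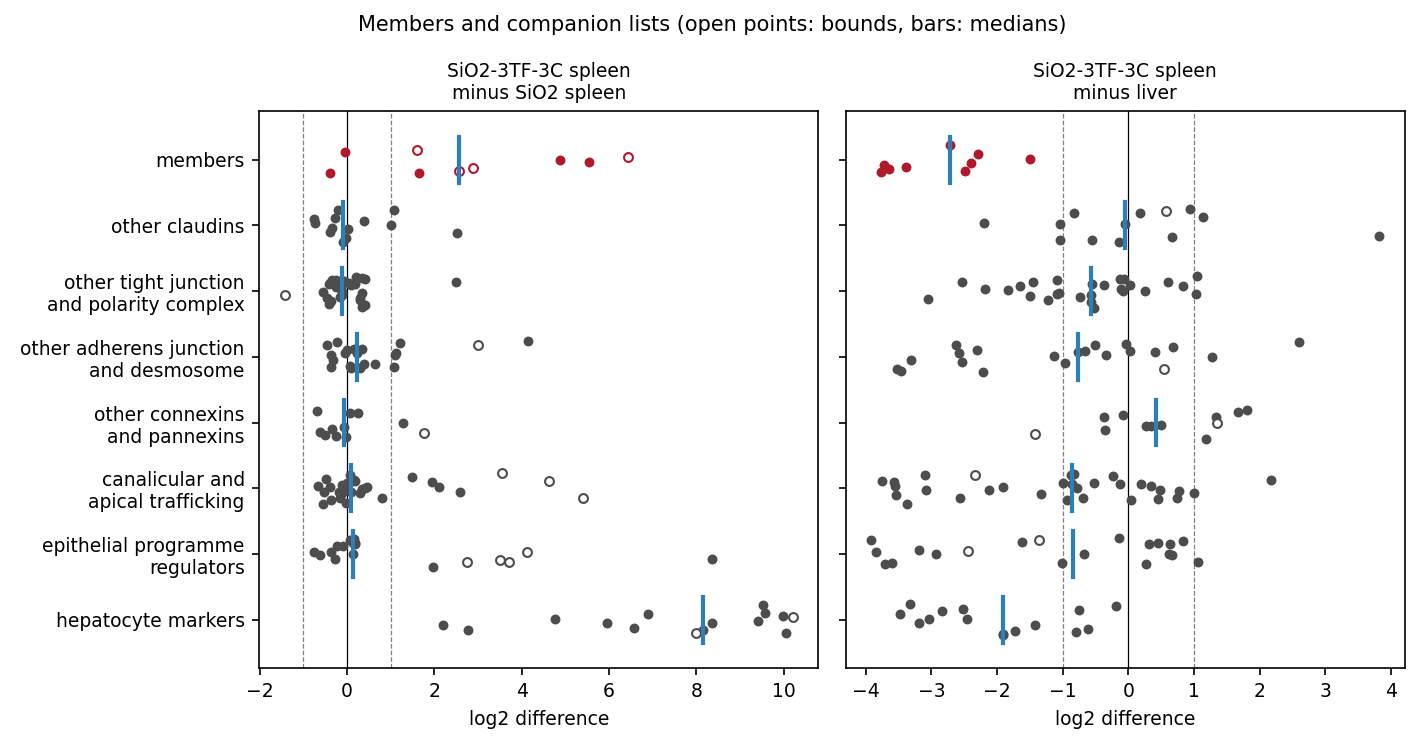
Log2 differences (x axes) of the members (red) and of 7 companion lists (grey) between the SiO2-3TF-3C spleen and the SiO2 spleen (left) and between the SiO2-3TF-3C spleen and liver (right); points are genes, open points bounds, blue bars list medians and dashed lines 2-fold. With bounds counted at their value, the members' median is 2.56 on the left and -2.71 on the right. Of these lists only the hepatocyte markers, with 8.16, have a higher median on the left.

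The genes whose levels over the 3 arrays lay nearest to those of Gjb1 and Gjb2 were sought among the 16085 genes that passed the background test on each of the 3 arrays, by the Euclidean distance of levels centred on their own mean. Nearest to Gjb1 were Asgr1 at 0.09, Rdh16f2 at 0.21 and Tdo2 at 0.22 on the log2 scale. Nearest to Gjb2 were Cyp3a44 at 0.09, Ces2e at 0.14 and Dio1 at 0.15. With 3 arrays such distances describe these samples alone.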

How the data were processed

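RNA of 3 tissues was measured on 1 single-colour array each. Per the file headers, the deposited scanner files hold linear spot intensity after background subtraction, extracted with Feature Extraction 11.0.1.1 (9.1 per the submitters' processing notes), with array build mm9. A kit for blood RNA, globin depletion and linear amplification were used, per the labels' protocols. The authors' deposited series table holds log2 values of 26049 probes, correlating at 0.993 to 0.996 with the log2 intensity of each array; how it was normalized is not given in the sources used, and its columns all have a median of 5.91.

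Control and outlier spots were left out, spots of a probe averaged, and log2 intensity scaled to the 75th percentile of each array, which was 515 in the SiO2-3TF-3C spleen, 389.8 in liver and 569 in the SiO2 spleen. Of 39112 probes 69.1% were named through unversioned RefSeq accessions and a GRCm38.p6 gene table, used for names alone; a gene took its brightest probe. Lowest signals well above background were -6.19, -5.57 and -6.04 on the scaled axis of the same arrays. With 1 array a group no p-value was computed and arrays limit the precision; the 2-fold rule replaced a test, and the arrays lay on 1 slide. Members, gene lists, motifs and alternatives were chosen with earlier results of these data known. Genes named are all members, up to 4 per list with the largest difference between the spleens among those past 2-fold (the 2 largest where fewer passed), fixed anchor genes such as Alb and Zeb1, and the 3 genes nearest to Gjb1 and to Gjb2 (none is given for Cldn3, which was dim in the SiO2 spleen); some genes that the rule names and 1 motif are not reported here, and Ctnnb1 was named outside this rule after its values were seen. The normexp alternative (limma 3.58.1 in R 4.3.3, offset 50) used median spot signals, since mean signals are not among the columns at hand. Other steps ran in Python 3.11.15 with pandas 2.3.3 and numpy 2.4.6, after being tested on simulated data.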

Additional observations from a re-analysis of the deposited data

How the results depend on the processing

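No member changed direction in any comparison under the alternatives that gave it a value, 7 or 8 for each. The 8 tried were normexp background correction, quantile normalization, median scaling, the authors' deposited table, the mean over a gene's probes, no filter on dim probes, only probes well above background on both arrays, and outlier spots kept. The authors' deposited table lacks Gjb2 and Tjp3. Between the spleens the Tjp3 difference, -0.05 ± 0.20, lay within its technical error. Between the SiO2-3TF-3C spleen and the SiO2 spleen, 7 members were called higher; 4 were with normexp, and 3 of 5 where only probes well above background on both arrays were used, since Cldn1, Cldn2, Cldn3 and Ocln then drop out. Over all genes, 706 of 16781 were higher between the spleens under this restriction. Between liver and the SiO2 spleen it left 5 of 5 members, and 2271 of 16147 genes were higher. With bounds counted at their value, the median difference of the members between the spleens was 2.56. It became 0.99 with normexp, 3.16 over the 7 members in the authors' deposited table and 1.94 with the mean over probes. With no filter it was 3.69, and with probes bright on both arrays 1.65. Between liver and the SiO2 spleen the median of 5.31 became 3.38, 5.86, 4.70, 7.07 and 4.13 under the same alternatives. Between the SiO2-3TF-3C spleen and liver the median of -2.71 became -2.23 with normexp, -2.46 with quantile normalization and -2.44 in the authors' deposited table. Over all genes, normexp gave 592 higher and 40 lower of 17578 between the spleens, against 924 and 245 of 17639. With no filter, 555 of 20546 were lower there. Normexp gave 1633 lower between liver and the SiO2 spleen, against 2946, and 861 higher between the SiO2-3TF-3C spleen and liver, against 1848. The causes were not tested, apart from the members dropped by construction. No paired analysis was possible because each group has 1 array. The spread between animals cannot be estimated, 5 samples share a pool, and signals near background in the SiO2 spleen give 4 members only bounds there.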

Other observations

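Some junction genes outside the set had a different order over the tissues. Cldn13 had a scaled log2 level of -1.03 in the SiO2-3TF-3C spleen, -4.86 in liver and -3.55 in the SiO2 spleen, and Epcam, an adhesion molecule of epithelial cells, had -1.80, -4.40 and -2.93 in the same tissues. Both were thus highest in the SiO2-3TF-3C spleen and lowest in liver. Cldn13 differed by 3.82 ± 0.29 and Epcam by 2.60 ± 0.26 between the SiO2-3TF-3C spleen and liver. The 10 erythroid markers had that order in their summed level too, and 10 of 10 exceeded liver by 2-fold or more in the SiO2-3TF-3C spleen, with a median of 3.23. The part of erythroid cells in these values was not tested. Gja1, the connexin widespread in stromal cells, had 0.43 in the SiO2-3TF-3C spleen, -1.37 in liver and 0.36 in the SiO2 spleen, and so was similar in the spleens and lower in liver; it was named after its values were seen. Clec4f and Vsig4, genes of liver macrophages, differed by 6.41 ± 0.34 and 4.11 ± 0.23 between the SiO2-3TF-3C spleen and the SiO2 spleen, while the other 10 macrophage and dendritic cell markers measured were within 2-fold. In the SiO2 spleen Clec4f, at -5.90, lay close to the lowest signal well above background there (-6.04). In the SiO2-3TF-3C spleen both genes lay below liver, with differences of -2.85 ± 0.20 for Clec4f and -2.90 ± 0.20 for Vsig4.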
